A study of Mus musculus with 35 samples.

Results

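Kidneys of newborn mice labelled Flcn/Tfe3 DKO were compared with control kidneys in a table of its own, named CDM by its column headings, whose meaning the labels do not give. The libraries were chosen by their columns in that table, 4 labelled Flcn/Tfe3 DKO (replicates 7 to 10 of that genotype) and 5 labelled as controls of the cross (replicates 4 to 8), so 9 of the 35 libraries of the series. All mice were C57BL/6 at postnatal day 2. In the DKO mice, Flcn flox/flox alleles were deleted by a Cre under the Ksp (Cdh16) promoter, which is active in collecting ducts, distal tubules and the thick ascending limb, and Tfe3 was lost in every cell (Tfe3-/-). The controls carried the Flcn flox/flox alleles without that deletion. RNA of whole kidney was sequenced with a 3′ mRNA kit, in which reads come from the end of a transcript, so cells without Cre contributed to every library. In such bulk samples fewer cells of a type and less RNA per cell cannot be told apart.

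Folliculin, the product of Flcn, activates the RagC and RagD GTPases on the lysosome, which present the transcription factors TFEB and TFE3 to the kinase complex mTORC1. Once phosphorylated, these factors of the MiT/TFE family stay in the cytoplasm, and without folliculin they enter the nucleus. There they bind the E-box CACGTG in promoters of lysosomal, autophagy and other genes, among them Rragd, which encodes RagD itself. In mice that lack both Flcn and Tfe3, TFEB remains, and the comparison asks which transcripts still differ from those of a control kidney.

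The promoters of 4 genes are shown because these genes are among those on which the result turns, 3 that were higher in DKO libraries (Aqp6, Mlph and Rragd) and 1 that was lower (Rpl34). Each covers 250 bases before to 50 after the start of a RefSeq transcript (GRCm38.p6), 5′ to 3′ on the strand of the gene, and the capitals mark CACGTG. They lie at chr15:99600950-99601249 (Aqp6, plus strand), chr1:90914850-90915149 (Mlph, plus strand), chr4:32982748-32983047 (Rragd, plus strand) and chr3:130730349-130730648 (Rpl34, minus strand).
Aqp6: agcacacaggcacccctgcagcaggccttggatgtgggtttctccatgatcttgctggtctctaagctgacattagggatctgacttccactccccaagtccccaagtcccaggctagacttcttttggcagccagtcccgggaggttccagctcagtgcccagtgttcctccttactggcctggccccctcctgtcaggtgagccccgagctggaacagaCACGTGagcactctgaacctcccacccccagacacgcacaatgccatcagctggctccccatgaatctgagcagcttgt
Mlph: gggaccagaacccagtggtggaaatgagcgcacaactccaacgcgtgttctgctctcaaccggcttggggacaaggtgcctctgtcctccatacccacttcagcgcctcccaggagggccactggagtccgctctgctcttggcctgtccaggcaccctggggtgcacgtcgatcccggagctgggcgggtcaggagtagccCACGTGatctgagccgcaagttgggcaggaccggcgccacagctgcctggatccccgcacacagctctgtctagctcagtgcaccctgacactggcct
Rragd: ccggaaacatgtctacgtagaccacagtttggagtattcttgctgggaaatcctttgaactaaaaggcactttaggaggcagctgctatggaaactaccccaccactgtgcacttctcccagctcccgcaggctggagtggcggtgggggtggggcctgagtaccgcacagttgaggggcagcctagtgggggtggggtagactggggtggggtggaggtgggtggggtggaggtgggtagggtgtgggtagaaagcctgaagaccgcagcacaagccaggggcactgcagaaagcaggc
Rpl34: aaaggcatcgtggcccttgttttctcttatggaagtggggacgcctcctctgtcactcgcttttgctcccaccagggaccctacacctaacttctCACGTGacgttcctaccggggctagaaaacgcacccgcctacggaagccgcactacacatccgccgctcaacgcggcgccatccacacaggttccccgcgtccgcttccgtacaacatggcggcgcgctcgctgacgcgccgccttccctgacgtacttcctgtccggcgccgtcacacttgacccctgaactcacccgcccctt
The hexamer, which reads the same on both strands, began 29 bases before the start in Aqp6, 48 before it in Mlph and 155 before it in Rpl34, and it was not in the window of Rragd. Among the genes called higher below, 13 of the 84 with a promoter in the table held it (15.5%), against 37 of 369 genes called lower (10%) and 11.8% of all 9570 tested genes with a promoter. Of all 32851 promoters of this length, 7.15% held it. These are matches of letters, not binding sites.

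The libraries of the groups differed in more than genotype. Reads counted on genes ranged from 3159884 to 3555791 in DKO libraries and from 1719367 to 2909353 in controls (exact permutation test, two-sided, p = 0.016, the smallest that this design can give, and 0.054 without DKO 8). With 0 reads found, as many as 3 counts cannot be told from none. That floor equals 0.844 to 1.74 CPM (the unit used throughout, counts scaled by library size) and covers counting error only. The share of counts on mt- genes, the transcripts of the mitochondrial genome, was 3.33% ± 0.659 (SD, n = 4) in DKO libraries and 4.93% ± 1.79 (SD, n = 5) in controls (exact permutation p = 0.11), with 3.01% in control 6 and 7.80% in control 5. As a share of all reads in the table the groups lay closer, at 1.85% ± 0.362 (SD, n = 4) and 2.19% ± 0.502 (SD, n = 5), a difference of -0.344 percentage points (exact permutation p = 0.31). Of all reads in the table, 55.2% to 56.2% were counted on genes in DKO libraries, 55.8% in control 6 and 38.6% to 47.4% in the other 4 controls. Control 6 thus lay with the DKO libraries in the share of reads counted and within their range of the mt- share, but not in its total of 2738325. Its mean correlation with them over log2 CPM was 0.965, against 0.926 with the other controls. On the first principal component (37.8% of the variance) control 6 was at 25.9, the DKO libraries between 17.7 and 25.9, and the other controls between -41.8 and -14.6. Transcripts of other tissues stood out in single libraries: the summed liver list reached 1911 and 5110 CPM in controls 4 and 7 (at most 702 in the other 7 libraries), adrenal genes 508 CPM in control 6 (at most 123 elsewhere) and muscle genes 381 CPM in DKO 8 (at most 41.3 elsewhere). By their Y-linked counts control 8, DKO 7 and DKO 9 came from males, so both sexes were in each group.

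**Figure D1:**
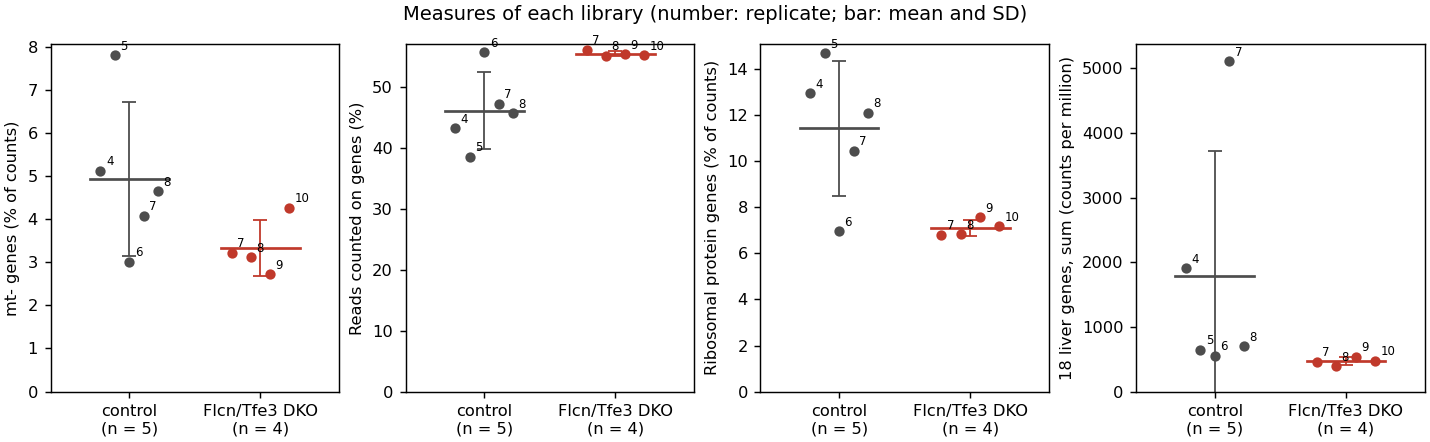
Measures of the 9 libraries, in percent of counts or reads and, for liver genes, in CPM of the library total; points are libraries with their replicate number, lines the mean and bars the SD (cut off at 0 for liver genes). Control 6 lies at the level of the 4 DKO libraries for reads counted on genes (55.8%) and ribosomal protein genes (6.96%), and controls 4 and 7 stand apart for liver genes.

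Before other genes, the 2 targeted ones were read in every library. Flcn (on mm10 chromosome 11, 59791408 to 59810016, ENSMUSG00000032633) had 10.6, 15.3, 12.1 and 13.9 CPM in DKO 7 to 10 and 9.09 to 13.1 CPM in controls. DKO exceeded control by 0.22 on the log2 scale with a standard error of 0.24 (adjusted p = 0.62 by the quasi-likelihood test of edgeR). Tfe3 (ENSMUSG00000000134, chromosome X, 7762560 to 7775202) had 16.6 ± 1.38 CPM (SD, n = 4) and 17.9 ± 0.871 (SD, n = 5), which is -0.11 on the log2 scale with a standard error of 0.19 (adjusted p = 0.79). Neither had lower counts beyond the spread. Reads of a 3′ kit can lie outside the deleted exons, so these counts do not check the labels, and DKO is used here as the name on the libraries. Cdh16, whose promoter drives the Cre, had 225 ± 11.5 CPM (SD, n = 4) against 249 ± 17.5 (SD, n = 5), so this kidney tubule marker was found in all libraries at a similar level.

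Across 12169 tested genes, 109 were called higher in DKO libraries (0.896%) and 460 lower (3.78%) at an adjusted p under 0.05, 4.68% in all. With the share of mt- counts as a covariate, 7 were called higher (0.0575%) and 1 lower (0.00822%), and these 8 were among the 569. The median log2 fold change over all tested genes was -0.0027 without the covariate and -0.0098 with it. All 109 and all 460 kept their direction with the covariate, as did 10219 of all 12169 tested genes. The calls came from the same libraries, which favours such counts. The median of the 109 went from 0.71 to 0.63, and that of the 460 from -0.96 to -0.63. Before adjustment, 2592 genes had a p under 0.05 without and 1372 with the covariate. The counts depended on single libraries: 2404 genes were called without control 6, and 37, 38 and 26 without DKO 7, 8 and 10.

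**Figure D2:**
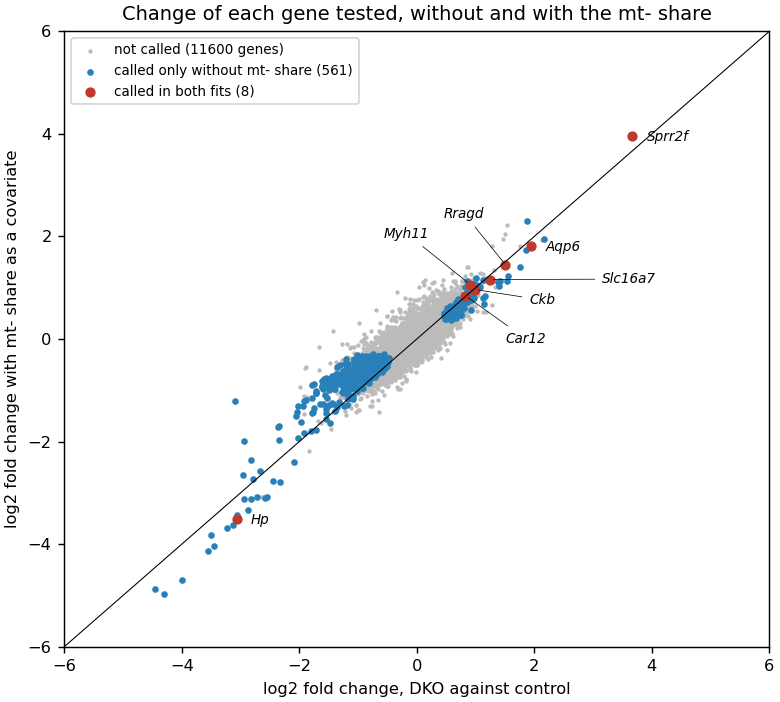
Each point is 1 of the 12169 tested genes, with its log2 fold change (DKO against control) on the horizontal axis and the same with the share of mt- counts as a covariate on the vertical axis; the line marks equal values. The 460 genes called lower lie mostly above the line, nearer to 0 with the covariate (median -0.96 and -0.63), while the 109 called higher lie near it; the position of Sprr2f, at the floor in controls, depends on the prior count.

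Each control was set against the mean of the DKO libraries. Over the 109 genes called higher, the median difference in log2 CPM (DKO mean less the control) was 0.84, 0.88, 0.51, 0.70 and 0.76 for controls 4 to 8, and 108 of the 109 were higher in DKO than in control 6. Over the 460 genes called lower, the medians were -1.17, -1.21, -0.098, -0.81 and -1.06, and 289 of the 460 were lower in DKO than in control 6, against 448 to 460 for the other controls. Apart from 1 gene against control 6, the DKO mean of the genes called higher was thus above every control, while most of the size of the lower set came from controls 4, 5, 7 and 8. The calls themselves favour such counts. Over all tested genes 49.2% to 50.7% were higher in DKO than in a single control. Of all tested genes, 377 (3.1%) had DKO libraries entirely above the controls and 322 (2.65%) entirely below. These shares were 92 of the 109 and 142 of the 460, which the calls themselves favour. Control 6, the only control with over 50% of its reads counted on genes, was also set alone against the DKO libraries. The log2 fold changes were then 1.34 for Rragd, 1.66 for Aqp6, 1.42 for Slc16a7 and 0.98 for Myh11. As this control was chosen after its likeness to the DKO libraries was seen, and no spread of controls enters, values against control 6 alone are here and below differences from 1 library and not tests. With the share of reads counted on genes as a covariate, 4 genes were called (Rragd, Aqp6, Myh11 and Neat1, all higher). Both fits were added after the data were seen, and Neat1 was named after its values were seen.

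Rragd (ENSMUSG00000028278, chromosome 4, 32983037 to 33022180), which encodes the RagD GTPase, had the smallest p of all genes. It had 53.9, 49.2, 50.1 and 51.1 CPM in DKO 7 to 10 and 17.1, 16.8, 20.2, 17.3 and 17.9 CPM in controls 4 to 8. The groups lay far apart with little spread in either. The increase was 1.51 on the log2 scale with a standard error of 0.15 (adjusted p = 6.0e-05 in edgeR's test) and 1.45 with the mt- share (adjusted p = 0.0015). Aqp6 (ENSMUSG00000043144, chromosome 15, 99601400 to 99605477), the water and anion channel of intercalated cell vesicles, had 69.1, 41.5, 51.5 and 36.6 CPM in DKO 7 to 10 and 10.3 to 15.8 CPM in controls. Even its lowest DKO library was above its highest control, and the increase was 1.94 on the log2 scale with a standard error of 0.21 (adjusted p = 8.8e-05), or 1.82 with the mt- share (adjusted p = 0.0034). These 2 genes were called under every other setting of the fit without the mt- share that kept more than 1 control. No gene was called when the column number of the library was a block beside the mt- share.

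Slc16a7 (ENSMUSG00000020102, chromosome 10, 125219270 to 125389465), the monocarboxylate transporter MCT2, had 83.3, 94.1, 69.3 and 79.2 CPM in DKO 7 to 10 and 25.9 to 40.9 CPM in controls. The groups did not overlap, and its log2 fold change was 1.25 without the mt- share (adjusted p = 0.00045) and 1.16 with it (adjusted p = 0.0086). Car12, a carbonic anhydrase at the basolateral membrane of the distal nephron, rose by 0.83 on the log2 scale, or 0.84 with the mt- share (107 ± 6.22 CPM, SD, n = 4, against 60.5 ± 3.02, SD, n = 5). Ckb, the brain-type creatine kinase, rose by 0.99 (0.96 with the mt- share), and Myh11, the myosin heavy chain of smooth muscle, by 0.91 (1.06 with it). Ckb and Myh11 were named after their values were seen, since they belong to the 8 genes called in both fits. Sprr2f, a small proline-rich protein of epithelia, had at most 3 counts in every control and 3.85 to 7.38 CPM in DKO libraries. Against a floor of 3 counts in each control it was at least 4.32-fold higher. The single gene called lower in both fits was Hp, haptoglobin, a plasma protein of the liver, with 1.91 to 2.96 CPM in DKO libraries and 23.5, 6.30, 7.20, 56.3 and 8.02 CPM in controls 4 to 8. It lay highest in controls 4 and 7, the libraries with most liver transcripts, and without these 2 controls it was not called (log2 fold change -1.57, adjusted p = 0.091). Of the 569 calls, 14 higher and 5 lower were also called in each of the 9 fits that left out a library.

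**Figure D3:**
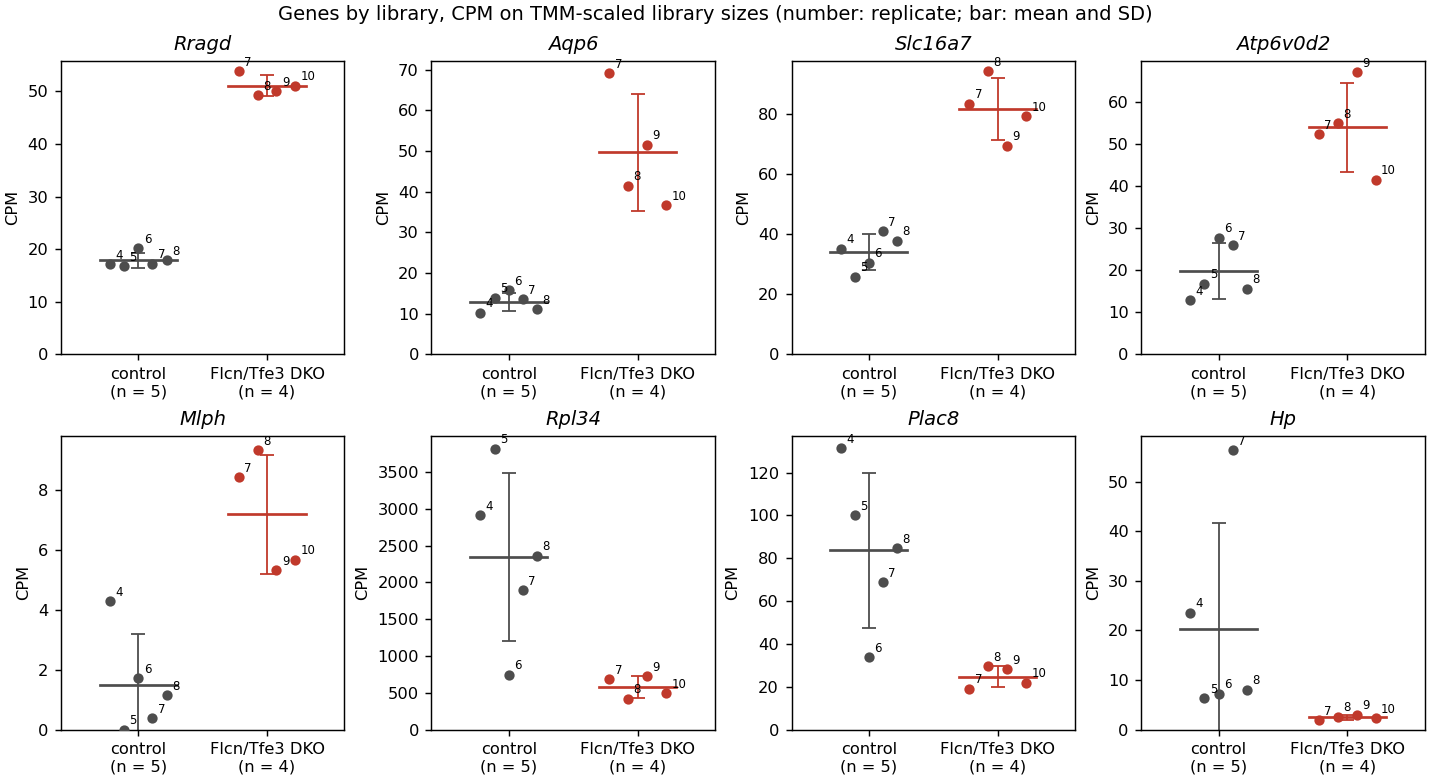
CPM of 8 genes in each library, with points as libraries (replicate number beside them), lines as means and bars as SD (cut off at 0 for Mlph and Hp). Rragd, Aqp6, Slc16a7, Atp6v0d2 and Mlph are higher in all DKO libraries than in any control; for Rpl34 and Plac8 control 6 (744 and 33.9 CPM) lies close to the DKO libraries, and for Hp controls 4 and 7 stand above the others.

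Genes of the vacuolar proton pump, which acidifies lysosomes and, in intercalated cells, secretes acid into the urine, were called in both directions. Of 21 tested members 3 rose and 1 fell (19% called, against 4.68% of all genes), with a median log2 fold change of 0.14 (0.079 with the mt- share, when none was called). Atp6v0d2, a subunit of the membrane part, had 52.3, 54.9, 67.0 and 41.4 CPM in DKO 7 to 10 and 12.8 to 27.8 CPM in controls, an increase of 1.42 on the log2 scale (adjusted p = 0.0037). With the mt- share the value was 1.13 (adjusted p = 0.053). Atp6v1c2, an isoform of the cytosolic part found in kidney, rose by 1.02 (20.7 ± 1.62 CPM, SD, n = 4, against 10.2 ± 2.18, SD, n = 5), and the common subunit gene Atp6v1d rose by 0.58. Atp6v1g1, also of the cytosolic part, fell by 0.84 and overlapped between the groups, since control 6 had 80.2 CPM and DKO libraries 72.6 to 94.5 CPM. It was named after its values were seen.

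Markers of the intercalated cell, the acid-base cell of the collecting duct, had a median of 0.38 over 16 tested genes, 15 of them above 0, and 0.30 with the mt- share. Of the 16, 3 were called (18.8%, against 4.68% of all genes), Atp6v0d2, Car12 and Aqp6, and the last 2 also with the mt- share. The list mean lay between 0.39 and 0.68 above the control mean in DKO libraries and between -0.22 and 0.24 in controls. Slc26a7, a chloride and bicarbonate exchanger of these cells that is not on the list, had 24.7 to 30.2 CPM in DKO libraries and 8.56 to 18.5 CPM in controls (log2 fold change 0.95, adjusted p = 0.021). It was named after its values were seen. Of 15 principal cell markers 2 were called, both lower: Aqp2, the vasopressin-regulated water channel, by 0.61 and Fxyd4, a regulator of the sodium pump, by 0.58 (13.3% called, against 4.68% of all genes). The median of that list was 0.19, and its direction turned with the share of reads counted on genes as a covariate (-0.055) and with control 6 alone (-0.022). In the thick ascending limb list 3 of 13 rose and 1 fell (30.8% called). Umod, which encodes uromodulin, had 235 to 301 CPM in DKO libraries and 139 to 194 CPM in controls (increase of 0.75 on the log2 scale, adjusted p = 0.0088), Ptger3, a prostaglandin receptor, rose by 1.14, and Sostdc1, a secreted antagonist of BMP and Wnt signals, by 0.47. Cldn10, a tight junction protein of that segment, fell by 0.69. With the share of reads counted on genes Cldn10 was at -0.25, Ptger3 at 0.61, Umod at 0.54 and Sostdc1 at 0.51, none called. Against control 6 alone they were at -0.070, 0.64, 0.55 and 0.55. The median of the thick ascending limb list was 0.18, and it was 0.090 and 0.020 in the same fits. None of the called principal cell and thick ascending limb genes had an adjusted p under 0.05 with the mt- share.

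Of the transcripts that the study lists as raised in kidneys that lack Flcn alone, 119 passed the filter, and 33 were called higher and none lower (27.7% of the list, against 0.896% of all genes). These 33 are 30.3% of the 109. Among them are Atp6v0d2, Car12 and Aqp6 of the intercalated cell list and Umod, Ptger3 and Sostdc1 of the thick ascending limb list. Atp6v0d2 and Atp6v1c2 of the proton pump are there too, so these lists share called genes and are not separate results. The raised list was drawn by the study from kidneys of another genotype. Its median was 0.36 both without and with the mt- share, under which 6 were called: Rragd, Aqp6, Slc16a7, Ckb, Car12 and Sprr2f. With 1 library left out and the mt- share in the fit, Rragd and Aqp6 were called in all 9 fits, Slc16a7 in 7, Ckb and Car12 in 5 and Sprr2f in 3. Over the 17 other settings tried for the list its median stayed between 0.33 and 0.44. Rab27a, a GTPase of secretory granules, rose by 1.76 (22.9 ± 5.23 CPM, SD, n = 4, against 6.47 ± 2.78, SD, n = 5), Olfm1, the secreted protein noelin, by 0.95, and Gm17767, for which no role is given here, by 1.92. Esrrg and Ppargc1a, an orphan nuclear receptor and a coactivator that together promote mitochondrial gene expression, rose by 0.87 and 0.85. Esrrg is on the study's list of raised transcripts, and Ppargc1a is not. In Ppargc1a the DKO libraries held 145 to 158 CPM and the controls 65.5 to 114 CPM. Its log2 fold change was 0.52 with the share of reads counted on genes (not called) and 0.42 against control 6 alone. Esrrg and Ppargc1a were the only called genes among 14 tested regulators of mitochondrial biogenesis (14.3%, against 0.896% of all genes called higher). The median of all 14 was -0.0048. Of the 52 transcripts listed as lowered without Flcn, 49 were tested and 4 were lower (8.16%, against 3.78% of all genes: Ubb, Aqp2, Pck1 and Gsdmc2), with a median of -0.031.

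Among the transcripts it lists as raised without Flcn, the study marked 13 as targets by earlier chromatin immunoprecipitation of TFEB. They are thus a part of the raised list and no separate set, and 12 passed the filter. Their median was 0.39 (0.36 with the mt- share). Of the 12, 2 were called higher (16.7%, against 27.7% of the raised list and 0.896% of all genes). CACGTG was held by 4 of the 10 with a promoter in the table. Mlph, the melanophilin that links Rab27a to myosin, had 8.44, 9.33, 5.33 and 5.68 CPM in DKO 7 to 10 and 4.28, 0, 1.71, 0.375 and 1.15 CPM in controls 4 to 8. All DKO libraries were above all controls, at low counts, and the increase was 2.16 on the log2 scale (standard error 0.52, adjusted p = 0.023; with the mt- share 1.96, adjusted p = 0.23). Rragd was the other called gene. Bhlhe41, a repressor of the circadian clock, had a log2 fold change of 2.13 (adjusted p = 0.051) and Gadd45a, a stress response gene whose groups did not overlap, 0.61 (adjusted p = 0.059). The other 8 lay between -0.32 (Vamp8) and 0.40 (Mcoln3). Gpnmb, a melanosomal and lysosomal glycoprotein, did not pass the filter. It had 11, 8, 2 and 10 counts in DKO 7 to 10 and 2, 0, 0, 2 and 1 in controls 4 to 8, at least 1.88-fold higher than the floor.

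Among the other MiT/TFE factors, Tfeb had 11.4 ± 1.56 CPM (SD, n = 4) in DKO libraries and 7.99 ± 3.83 (SD, n = 5) in controls, Mitf 26.4 ± 5.09 and 24.0 ± 6.97, and Tfec 5.37 ± 0.954 and 8.28 ± 3.56. None was called, with adjusted p of 0.41, 0.77 and 0.35. Of the 15 tested factors and partners 2 were called (13.3%, against 4.68% of all genes). Rragd rose and Lamtor5, a subunit of the Ragulator that holds the Rag GTPases on the lysosome, fell by 0.71, which was -0.29 with the share of reads counted on genes (not called) and -0.19 against control 6 alone. None of the 48 tested lysosomal hydrolase genes was called higher, and 2 proteases fell, Ctsl by 0.59 and Ctsh by 1.07. These 4.17% called are near the 4.68% of all genes. For Ctsh control 6 had 82.6 CPM, below the DKO range of 87.1 to 105 CPM. The median of the hydrolases was -0.089, and it stayed below 0 in all 17 other settings. None of 51 genes of the lysosomal membrane and of sorting was called (median 0.027), and of 44 autophagy genes Fundc1, a receptor for damaged mitochondria, fell by 0.68 (median of the list 0.050). In edgeR's test with the mt- share no gene of these 3 lists was called.

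Ribosomal protein genes made up the largest group of the lower calls. Of 81 tested, 52 were lower and none higher (64.2% called, against 4.68% of all genes), with a median of -0.92. With the mt- share the median was -0.48 and none was called. The summed share of these genes was 7.10% ± 0.358 (SD, n = 4) of counts in DKO libraries and 11.4% ± 2.93 (SD, n = 5) in controls, and 6.96% in control 6. Rpl34, a protein of the large subunit, had 681, 421, 727 and 490 CPM in DKO 7 to 10 and 2916, 3818, 744, 1892 and 2362 CPM in controls 4 to 8. Control 6 was the only control near the DKO range. It fell by 2.02 on the log2 scale (adjusted p = 0.0058; -1.31 with the mt- share, adjusted p = 0.087). Of the variant subunits, Rpl22l1 fell by 1.56 and Rps27l fell from 133 to 559 CPM in controls to 96.2 to 129 CPM in DKO libraries. The direction of the list turned where control 6 was the only control, with a median of 0.041, and the median was -0.073 with the share of reads counted on genes as a covariate.

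Subunits of the respiratory chain encoded in the nucleus behaved alike. Of 80, 15 were lower and none higher (18.8%, against 3.78% of all genes called lower), with a median of -0.37 (-0.17 with the mt- share, none called), among them Atp5e of the ATP synthase (decrease of 1.47), Ndufa4 (1.32) and Ndufa7 (1.10). In Ndufa4, control 6 had 138 CPM and the DKO libraries 152 to 175 CPM, while the other controls had 368 to 585 CPM. Of 75 mitochondrial ribosomal protein genes 11 were lower and none higher (14.7%, median -0.32, or -0.22 with the mt- share), such as Mrpl14, which fell by 1.05, and Mrpl13, which fell by 0.84. Of 11 tested mitochondrially encoded genes 3 were lower (27.3%, against 3.78% of all genes), mt-Co1 by 1.06, mt-Co3 by 1.42 and mt-Cytb by 1.03. The median of the 11 was -0.89 and became -0.31 with the share that they themselves make up. These medians were 0.17, 0.12 and 0.049 with control 6 alone. The share of mt- counts, the reads counted on genes and the ribosomal protein share moved together with these lists, and their part in the result was not tested beyond the fits above.

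**Figure D4:**
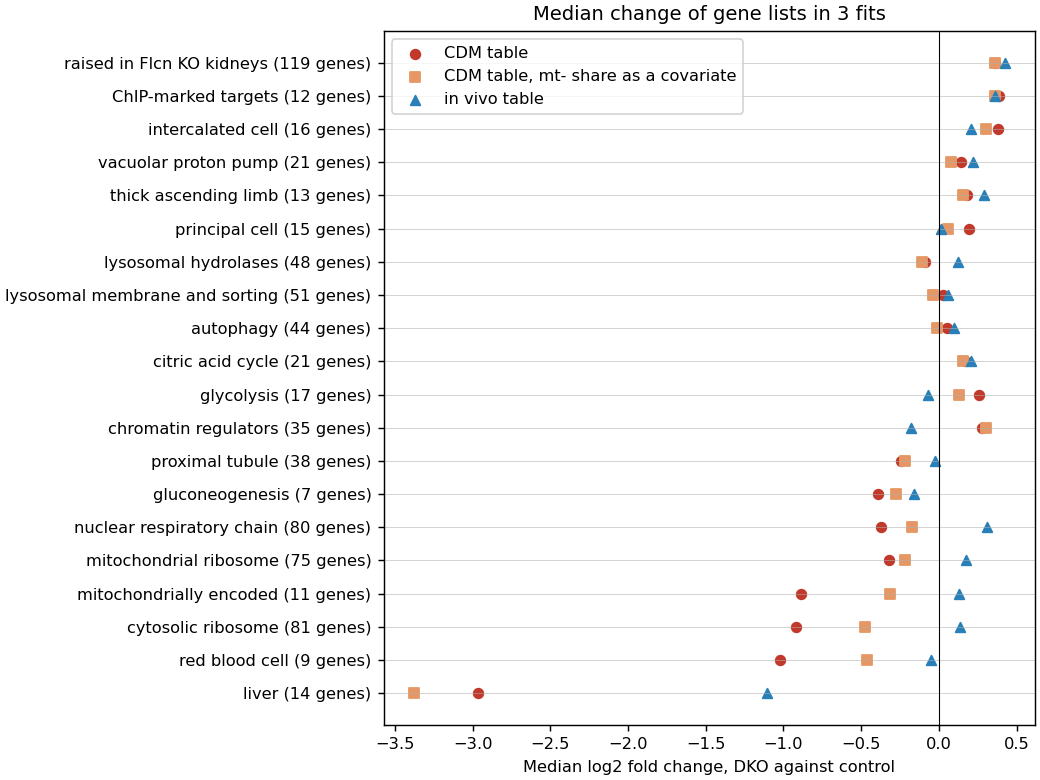
Median log2 fold change (DKO against control) of 20 gene lists in the CDM table without (circles) and with the share of mt- counts as a covariate (squares), and in the in vivo table (triangles), with the number of tested genes beside each list. The list raised in Flcn KO kidneys and the ChIP-marked targets, which are a part of it, lie near 0.4 in all 3 fits. Ribosomal and respiratory chain lists are below 0 in the CDM table and above 0 in the in vivo table.

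Blood and liver transcripts were lower as well. Of 14 tested liver genes 13 were called lower (92.9%, against 3.78% of all genes, median -2.97, and -3.38 with the mt- share, when Hp alone was called). Alb, serum albumin, had 14.5 to 40.0 CPM in DKO libraries and 426, 72.0, 36.7, 1168 and 19.5 CPM in controls 4 to 8, so that controls 6 and 8 lay within the DKO range. Apoa1, an apolipoprotein, had 248 and 688 CPM in controls 4 and 7 and 8.40 to 36.4 CPM in the other 7 libraries. Without controls 4 and 7 the median of the list was -0.48. The red blood cell list had 4 lower of 9 (44.4%, against 3.78% of all genes, median -1.02), with Hbb-bs, an adult beta globin, at 604 to 749 CPM in DKO libraries and 938 to 3772 CPM in controls, and Hbb-bt and Hba-a2 lower by 1.71 and 1.06. With the mt- share the median was -0.46 and none was called. It was -0.10 with the share of reads counted on genes and -0.29 with control 6 alone. S100a8 and S100a9, proteins of neutrophils, fell by 1.98 and 2.35, the only called genes among 18 myeloid markers (11.1%, against 3.78%). Control 6, with 7.20 CPM of S100a8 and 6.51 CPM of S100a9, lay within the DKO range of both, and with control 6 as the only control their values were 0.39 and 0.085, above 0. Plac8, expressed in immune cells and epithelia, fell by 1.75 and Stfa1, a cystatin of neutrophils, by 2.96. With the share of counts on globin genes as a covariate, 4 genes were called in all, Rragd, Aqp6, Myh11 and Sfn, all higher (Sfn was named after its values were seen).

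Proximal tubule genes were lower in part. Of 38 tested, 6 were called lower and none higher (15.8%, against 3.78% of all genes called lower), with a median of -0.25 (-0.22 with the mt- share). That median stayed between -0.27 and -0.20 in all 17 other settings, control 6 alone included. In the in vivo table of the same cross the median of the list was -0.023. Spp2, a secreted phosphoprotein, had 376 to 418 CPM in DKO libraries and 890, 960, 459, 709 and 920 CPM in controls 4 to 8, a decrease of 0.99 on the log2 scale (adjusted p = 0.0084). Kap, the kidney androgen-regulated protein, fell by 0.98. Unlike the median of the list over those settings, these 2 genes moved. With the share of reads counted on genes Spp2 was at -0.34 and Kap at -0.40, neither called. Against control 6 alone they were at -0.22 and -0.34. Of 7 gluconeogenic genes, 3 were called (42.9%), all lower: Pck1, which makes phosphoenolpyruvate, by 0.76, Fbp1, fructose bisphosphatase, by 0.60 and G6pc, which releases glucose, by 0.82. G6pc had 70.2 to 99.2 CPM in DKO libraries and 121 to 204 CPM in controls, without overlap. The median of these 7 genes was -0.39, or -0.15 with the share of reads counted on genes and -0.18 against control 6 alone. In the same order Pck1 was at -0.74 and -0.62, Fbp1 at -0.37 and -0.32 and G6pc at -0.59 and -0.68. Gatm, an enzyme of creatine synthesis, fell by 0.65 and Ttr, transthyretin, by 0.91. Both were named after their values were seen, and Ttr is also a liver gene. Gatm was at -0.33 with the share of reads counted on genes and at -0.28 against control 6 alone. For Ttr these values were -0.71 and -0.25. With the mt- share none of these had an adjusted p under 0.05.

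In energy metabolism, 2 of 17 glycolytic genes rose (11.8%, against 0.896% of all genes), Hk1 (hexokinase) by 0.75 and Pkm (pyruvate kinase) by 0.67. The median of 0.26 was 0.13 with the mt- share, 0.042 with the share of reads counted on genes and 0.11 with control 6 alone, against which Hk1 was at 0.14 and Pkm at -0.013. Ogdh of the citric acid cycle rose by 0.62 (median of 21 genes 0.17, and 17 of them above 0). Ogdh was at 0.19 with the share of reads counted on genes (not called) and at 0.32 against control 6 alone. Of 38 genes of fatty acid and ketone oxidation 3 were called (7.89%, against 4.68% of all genes) and the median was 0.0067. Oxct1 and Hadha rose by 0.62 and 0.58, and the carnitine transporter gene Slc22a5 fell by 1.09. With the share of reads counted on genes these 3 were at 0.38, 0.19 and -1.06, none called. Against control 6 alone they were at 0.42, 0.22 and -1.04. Fdps was the 1 of 23 cholesterol synthesis genes that was called (4.35%, against 4.68% of all genes), with an increase of 0.98. Of 35 chromatin regulators only Smarcc1 was called, higher by 0.61, while 33 had values above 0 (median 0.28), against 49.6% of all genes above 0. With the share of reads counted on genes Smarcc1 was at 0.20 (not called) and the median at 0.17. Against control 6 alone they were at 0.19 and 0.12. Of 56 cell cycle genes Bub1b alone was called, higher by 0.67, and no gene was called among 16 of the hypoxia response, 22 of the ATF4 response, 14 p53 targets, 16 immediate early genes, 34 collagen and matrix genes and 13 of fatty acid synthesis. With 4.68% of all genes called, counts of 0 or 1 in lists of these sizes are near the background. Bub1b was at 0.40 with the share of reads counted on genes (not called) and at 0.29 against control 6 alone. Of 20 interferon response genes 2 were lower (10%, against 3.78% of all genes), Isg15 by 1.55 and Bst2 by 1.19. Adding the share of reads counted on genes gave -0.79 for Isg15 and -1.12 for Bst2, neither called. Against control 6 alone they were at -0.28 and -0.82. The mean of that list was 0.092 above the control mean in DKO 9 and below it in the other DKO libraries (-0.57 to -0.35). Of 31 proteasome genes 4 were lower, Psma3, Psma5 and Psma6 among them (12.9%, against 3.78% of all genes), with a median of -0.20 that was 0.016 with control 6 alone. Of 33 translation factors 5 were lower (15.2%), with a median of -0.039.

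Genes with short transcripts were lower and those with long transcripts higher. Genes were sorted by the longest transcript in the GENCODE annotation of mm10. Among 469 genes of 500 to 1000 bases the median log2 fold change was -0.51 and 24.9% were called lower, and among 751 genes over 8000 bases it was 0.18 and 0.266% were called lower. With the mt- share these medians were -0.34 and 0.19. In the in vivo table of the same cross they were 0.19 and -0.13, in the opposite order. The 460 genes called lower had a median length of 1565 bases, the 109 called higher 3854 bases, and all tested genes 3466 bases. Ribosomal protein genes (median 1106 bases) and nuclear respiratory chain genes (1088 bases) are short and chromatin regulators long (8714 bases), and the part of length in their values was not tested.

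**Figure D5:**
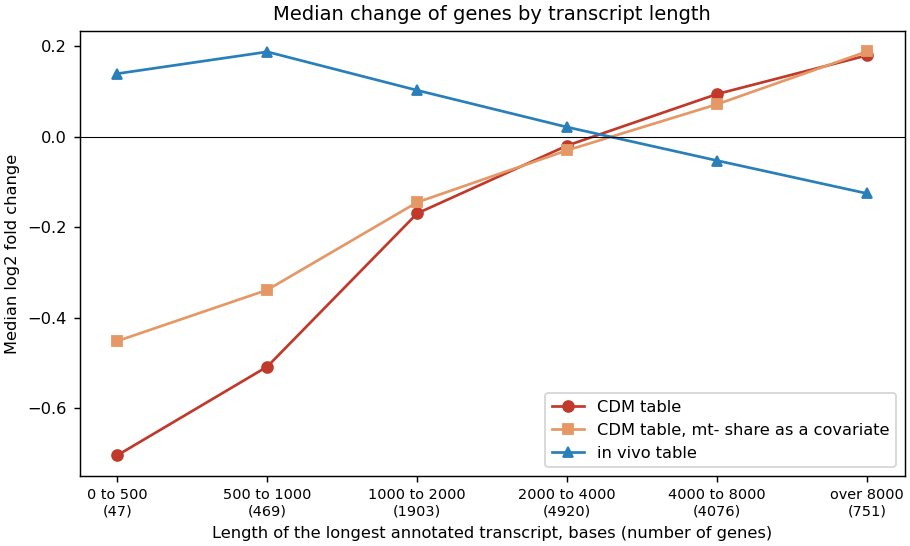
Median log2 fold change (DKO against control) of genes in 6 classes of transcript length in bases, with the number of genes of each class, for the CDM table without and with the share of mt- counts as a covariate and for the in vivo table. The CDM medians go from -0.70 for the 47 shortest to 0.18 for the longest transcripts, and those of the in vivo table from 0.14 to -0.13.

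The in vivo table holds other kidneys of the same cross and age, 6 labelled DKO and 3 controls, and shares no library with the CDM table. In it 8 of 13191 genes were called (0.0606%), all higher, and 7 of these were among the 109: Rragd, Aqp6, Slc16a7, Atp6v1c2, Atp12a, Plet1 and Guca2a. None was called in vivo without control 1 or without control 2 of that table, 2 in each of 5 other fits that left out a library, and 7 and 11 in the remaining 2. The eighth, Atp6v1g3 (named after its values were seen), a proton pump subunit of intercalated cells, had a value of 0.19 in the CDM table and 1.23 in vivo. Its CDM value was 0.84 with the share of reads counted on genes (not called) and 1.04 against control 6 alone. Atp12a, the colonic proton and potassium pump, rose by 1.07 in the CDM table, Plet1, a surface protein of epithelial progenitors, by 0.85, and Guca2a, guanylin, by 1.12. Atp12a, Plet1 and Guca2a were named after their values were seen. All 33 genes that were called higher here and listed as raised without Flcn were above 0 in vivo (median 0.81). Of the other 76 genes called higher, 75 were tested in vivo and 30 of these (40%) were above 0, with a median of -0.068. Of the 460 called lower, 458 were tested in vivo and 391 (85.4%) were above 0, the opposite direction, with a median of 0.19. Myh11, called in both CDM fits, was at -0.095 in vivo (adjusted p = 0.95 in edgeR's test). Over all genes 50.9% were above 0 in vivo.

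The difference between the effects of the tables was tested as an interaction over the 18 libraries. Of 13370 genes 112 were called (0.838%), 102 of them lower in the CDM effect. No gene was called in 14 of the 18 fits that left out 1 library, while 1606 were called without control 6. The counts that follow are those of all 18 libraries. Of the 33 genes above none was among them, of the other 76 there were 5, and of the 460 there were 97. Plac8 (-2.39), Rps27l (-2.09), Tcf21, a transcription factor of stroma and podocytes (-1.29), and Gpx8, a peroxidase of the endoplasmic reticulum (-1.35), were among them. The 33, the 76 and the 460 were chosen by the CDM effect that enters this difference, which favours calls in the direction of that effect. With the share of mt- counts as a covariate none of the 13370 was called.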

How the data were processed

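QuantSeq 3′ libraries of mouse kidney RNA (postnatal day 2) were sequenced single-end. According to the study's methods the authors trimmed reads with bbduk, aligned them to mm10 by STAR and obtained gene counts by HTSeq-count, while the submitters' processing notes name Trim Galore and STAR. The authors deposited the raw counts of 31053 genes, not normalized. Rows that name no gene (reads at more than 1 place, on no gene or not aligned) stayed out of library sizes and tests. The genes held 38.6% to 56.2% of all reads, and those rows the rest. Of the gene identifiers 99.9% are in GENCODE M21, and 119 had no symbol. The column of a percentage of reads in the in vivo table (1 column) was not used.

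Genes were filtered with filterByExpr, scaled by TMM and tested by quasi-likelihood F-tests (edgeR 4.0.16 in R 4.3.3, two-sided), on the CDM libraries alone. Adjusted p are Benjamini-Hochberg over all tested genes, and a gene was called under 0.05. The standard error is the log2 fold change divided by the root of F. The share of mt- counts, in percent, was added as a numeric covariate. CPM are on TMM-scaled library sizes, except for lists, Gpnmb and the library measures, and log2 CPM had a prior count of 2. The difference between tables is the interaction of table and genotype. Single measures of libraries were compared by exact permutation. The labels call the libraries biological replicates. The 16 pairs of libraries within groups differed by more than sampling noise (chi-square per degree of freedom 2.91 to 26.2), and none was merged. The tests were tried on simulated counts.

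The libraries, lists and rules were chosen with earlier results of these data known. The lists are 53, compiled by hand or taken from the study, and are described by counts and medians without a test. Picked by rule, though not all are printed, were Flcn, Tfe3, Tfeb, Mitf, Tfec, Cdh16 and the ChIP-marked genes. So were the 12 largest increases and decreases among called genes without overlap whose higher group averaged at least 10 counts. The rule also took up to 3 called genes of smallest p in each list and fit, and up to 5 of smallest p called in 1 fit only or in the interaction. Of the increases Arhgdig (1.53 in log2), Ccdc189 (1.37), Fa2h (1.88) and Syn2 (1.85) are not described elsewhere. Nor are the decreases Ambp (-3.07), Fga (-2.87), Chrna1os (-1.93), Gm11627 (-1.92), B930036N10Rik (-1.79) and P2ry14 (-1.72). Alternatives tried were RLE factors, DESeq2 1.42.0, likelihood ratio tests, other filters, a threshold of 0.1, thinning to 1719367 counts, mt- genes removed, terms for globin share, sex and replicate number, and each library left out in turn. Figures were drawn with matplotlib 3.10.9.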

Additional observations from a re-analysis of the deposited data

Results flagged for a closer look

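Single libraries stood apart from their group (gap to the nearest library over the range of the group beyond the critical value of Dixon's test) in 15 of 262 groups of values looked at, where chance gives about 1 in 20. Among the library measures these were the 1719367 counts of control 5, the adrenal genes in control 6 (508 CPM, next 123) and the muscle genes in DKO 8 (381 CPM, next 38.4). Control 6 also stood lowest of the controls for Eif2s1 (47.6 CPM), Fundc1 (39.7 CPM), Tcf21 (67.5 CPM), Ubb (70.9 CPM, next 285) and mt-Co3 (5.83 CPM), and highest for Bub1b (25.4 CPM). Control 8 was highest for Guca2a (10.3 CPM). DKO 7 was highest of its group for Alb (40.0 CPM) and lowest for Psma6 (82.5 CPM), Smarcc1 (393 CPM) and Soat1 (57.4 CPM), and DKO 10 was lowest for Sostdc1 (367 CPM).

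The effect differed between the CDM and in vivo tables (interaction, adjusted p from 0.047 to 0.050 in edgeR's test) for 20 genes named by the rule, all lower in the CDM effect. The log2 differences were -1.85 for Atp5e, -1.56 for Bst2, -1.04 for Cldn10, -1.01 for Fundc1, -1.35 for Gpx8, -1.75 for Hbb-bs, -1.68 for Hbb-bt, -2.06 for Hspb11, -1.53 for Hspe1 and -2.49 for Isg15. They were -1.16 for Kap, -1.54 for Mycbp, -1.90 for Ndufa4, -1.35 for Ndufa7, -2.39 for Plac8, -1.81 for Rpl22l1, -2.09 for Rps27l, -1.04 for Spp2, -1.29 for Tcf21 and -3.16 for Zfp456. The adjusted p lay close to the threshold, and none of the 13370 genes was called in 14 of the 18 fits that left out a library.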

How the results depend on the processing

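Rragd and Aqp6 were called under every alternative of the fit without the mt- share that kept more than 1 control. The 569 calls without the mt- share became 1108 at an adjusted p under 0.1, 865 with DESeq2 and 930 with the likelihood ratio test. They became 937 without a filter, 8 with the mt- share, 4 with the globin share and 4 with the share of reads counted on genes. Without controls 4 and 7 they became 3. With 1 library left out they were 26 to 2404 (201, 300, 394 and 216 without controls 4, 5, 7 and 8, and 212 without DKO 9). The fit on control 6 alone gives differences from 1 library, so its calls are not counted. The 8 calls with the mt- share became 33 at 0.1, 83 with DESeq2 (4 of the 8 among them), 99 with the likelihood ratio test, 245 without a filter, 5 with the globin share, 4 without controls 4 and 7, and 2 to 895 with 1 library left out (895 without control 6). The 112 calls of the difference between tables became 744 at 0.1, 739 with DESeq2, 398 without a filter, 0 with the mt- share, and 0 to 1606 with 1 library left out. The 8 calls in vivo became 25 with DESeq2, 14 without a filter, and 0 to 11 with 1 library left out. The difference in library totals lay between 589970 and 887466 (exact p = 0.054 without DKO 8) and that in the mt- share between -2.08 and -0.88 with 1 library left out, against -0.34 with all reads in the table as the denominator. The alternatives for the 569 with the share of reads counted and without controls 4 and 7, and the fit on control 6 alone, were chosen after seeing the data. The causes were not tested.

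Numbers shared between groups did not pair the samples: deviations of same-numbered libraries had correlations from -0.080 to 0.029 by column number and of 0.013 and -0.035 by title number. With the replicate block by column number 176 genes were called, and 0 with the mt- share as well. With the block by title number 1597 were called, and that block with the mt- share could not be fitted.

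Some single genes changed direction. With control 6 as the only control, log2 fold changes were 0.085 for Atp5e, 0.089 for Mrps18c, 0.26 for Ubb, 0.35 for Clk1, 0.22 for Eif3m, 0.17 for Tfec, 0.24 for Ndufa4, 0.15 for Asah1, -0.013 for Pkm, 0.22 for Ctsh, -0.39 for Mitf, 0.017 for Atp6v1g1, 0.39 for S100a8, 0.085 for S100a9, 0.10 for Fabp4, 0.23 for mt-Cytb, 0.069 for Hspe1 and 1.40 for Hsbp1l1. With the share of reads counted they were 0.23 for Clk1, 0.0092 for Eif3m, 0.28 for Asah1, 0.12 for Ctsh, -0.23 for Mitf, 0.00076 for mt-Co1, 0.21 for mt-Cytb and 0.60 for Hsbp1l1. With the mt- share they were 0.067 for Asah1, -0.029 for Mitf and 0.070 for Hsbp1l1, and with the globin share 0.054, -0.034 and 0.46. The block by title number gave 0.050 for Asah1 and that by column number 0.11 for Hsbp1l1. Without controls 4 and 7 Mitf was at -0.10 and Hsbp1l1 at 0.045, and with 1 library left out Hsbp1l1 lay between -0.29 and 0.18.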
